A study of Mus musculus with 39 samples.

Results

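Oscar, Siglec15, Trem2, Pira2, Tyrobp, Fcer1g, Syk, Plcg2, Src and Itgb3 encode the receptors, adaptors and signalling enzymes through which osteoclasts, the bone-resorbing cells, receive costimulation and attach to bone. All 10 genes were found by their Ensembl identifiers among the 37583 gene rows of the count files. They were followed through 39 RNA libraries of cortical bone taken from mouse femurs. The first experiment held 8 libraries labelled Sik2/3 DKO, from mice said to lack the salt-inducible kinases SIK2 and SIK3, which parathyroid hormone signalling inhibits, and 8 libraries labelled WT. The second held 12 libraries of Col1a1-Pth1r H223R mice, called C1HR here, and 11 WT libraries of its own. The C1HR transgene puts a constitutively active parathyroid hormone receptor under the promoter of the type I collagen gene Col1a1, which is active in cells of the osteoblast lineage and not in osteoclasts. The labels name no other allele, no Cre driver and no age, and no allele or treatment is stated to be shared by the groups. The design text counts 6 WT samples in the first experiment where the labels give 8. Marrow was flushed from the bones of the first experiment. For the C1HR experiment the design text says that flushing was left out and the extraction protocol says that it was done, so this is not settled.

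Osteoclasts form by fusion of cells of the monocyte lineage, and the cytokine RANKL needs a second signal from immunoreceptors to drive them. OSCAR and PIR-A signal through the adaptor FcRγ (Fcer1g), while TREM2 and SIGLEC15 signal through DAP12 (Tyrobp). Both adaptors carry an ITAM, a short motif that, once phosphorylated by Src family kinases, recruits the kinase SYK, which activates phospholipase Cγ2 (Plcg2) and raises calcium. The β3 integrin chain (Itgb3) pairs with αv (Itgav) on osteoclasts and with αIIb (Itga2b) on platelets and megakaryocytes, and engagement of αvβ3 feeds SRC and SYK to form the sealing zone.

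The promoters below are given as examples of the genes that moved in each of the opposite patterns described further on. Oscar and Trem2 stand for the receptors, and Fcer1g and Plcg2 for the adaptors and enzymes. RefSeq promoters (GRCm38.p6, 250 bases before to 50 after the start) were found for 7 of the 10 genes, all but Itgb3, Tyrobp and Siglec15. Capitals mark 4 motifs searched on both strands, namely the PU.1 core GAGGAA, the NFAT core GGAAA, the MITF E-box CATGTG and the AP-1 pattern TGANTCA, in which N is any base. The PU.1 and NFAT cores overlap where the letters run GAGGAAA. Each sequence reads 5′ to 3′ on the strand of its gene. The Oscar promoter is chr7:3616108-3616407 (minus strand), the Trem2 promoter chr17:48346151-48346450 (plus strand), the Fcer1g promoter chr1:171234300-171234599 (minus strand) and the Plcg2 promoter chr8:117498025-117498324 (plus strand).
Oscar: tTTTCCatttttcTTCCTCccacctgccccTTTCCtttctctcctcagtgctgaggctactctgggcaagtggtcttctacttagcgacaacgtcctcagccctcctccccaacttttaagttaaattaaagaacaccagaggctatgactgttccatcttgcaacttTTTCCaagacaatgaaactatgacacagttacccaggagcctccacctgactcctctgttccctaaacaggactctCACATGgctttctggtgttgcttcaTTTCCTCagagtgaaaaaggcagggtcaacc
Trem2: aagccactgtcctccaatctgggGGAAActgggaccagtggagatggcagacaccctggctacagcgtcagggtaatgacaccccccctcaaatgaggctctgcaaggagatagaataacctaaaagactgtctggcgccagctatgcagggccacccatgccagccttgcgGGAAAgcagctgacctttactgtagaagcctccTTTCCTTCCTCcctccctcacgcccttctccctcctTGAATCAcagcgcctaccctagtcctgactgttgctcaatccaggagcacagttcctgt
Fcer1g: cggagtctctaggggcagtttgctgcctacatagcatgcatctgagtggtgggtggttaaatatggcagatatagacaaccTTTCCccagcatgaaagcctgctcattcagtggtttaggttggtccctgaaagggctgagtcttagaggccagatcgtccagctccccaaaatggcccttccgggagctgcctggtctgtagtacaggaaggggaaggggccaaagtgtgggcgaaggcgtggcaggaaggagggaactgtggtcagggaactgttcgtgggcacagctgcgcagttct
Plcg2: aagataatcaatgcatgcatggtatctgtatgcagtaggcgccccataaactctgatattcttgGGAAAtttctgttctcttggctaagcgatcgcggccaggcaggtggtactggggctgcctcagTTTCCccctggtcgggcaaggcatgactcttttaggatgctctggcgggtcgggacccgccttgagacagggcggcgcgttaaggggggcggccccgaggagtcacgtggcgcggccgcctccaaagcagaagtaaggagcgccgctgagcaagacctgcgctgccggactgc
Among all 32851 RefSeq promoters of this length, 28.3% hold the PU.1 core, 61.3% the NFAT core, 14.2% the E-box and 7.81% the AP-1 pattern. The PU.1 core was present in 5 of the 7 genes, Oscar, Trem2, Src, Syk and Pira2. The NFAT core was present in 6 of 7, all but Src. For Syk these matches are in the second of its 2 promoters. The E-box was found in the Oscar window alone, with its first base 6 bases before the start site. The AP-1 pattern was matched in the Trem2 window alone, by the letters TGAATCA, with the first base 9 bases before the start site. A match is a description of letters in this window and not a bound site.

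Reads assigned to genes ranged from 11444686 to 24922490 per library. They did not overlap in the second experiment, at 14909609 to 16370874 in C1HR and 11444686 to 13475805 in its WT group. The median share of alignments that were not unique was 29.7% in C1HR and 48.7% in its WT group. It was 30.8% in libraries labelled DKO and 26.8% in those labelled WT. The part of these differences in the results was not tested. Sik2 ran counter to the labels of the first experiment. It averaged 29.7 ± 6.60 CPM in libraries labelled DKO (SD, n = 8) against 19.1 ± 3.20 CPM in those labelled WT (SD, n = 8), which is higher under the DKO label (fold change on the log2 scale, log2 FC, 0.64 ± 0.14 SE, edgeR adjusted p = 0.00127). Sik3 did not pass the test (log2 FC -0.21 ± 0.14, adjusted p = 0.223). Counts cover whole genes and do not show whether an exon is missing, so directions are given for libraries as labelled. Pth1r, the gene of the transgene, was higher in C1HR (log2 FC 1.89 ± 0.10, edgeR adjusted p = 8.68e-15). It was also lower in libraries labelled DKO (-1.02 ± 0.19, edgeR adjusted p = 0.000326). In C1HR, Sik2 was lower (-0.60 ± 0.09, edgeR adjusted p = 1.47e-06) and Sik3 higher (1.01 ± 0.08, edgeR adjusted p = 2.04e-11). Changes in these genes were thus not confined to the experiment that targeted them. The libraries labelled WT 5 and WT 6 and C1HR 8 and C1HR 9 stood apart from their groups in earlier results, and values without them are given for some of the results. Genes of bone-forming cells were abundant in all groups, with summed levels of 10 osteoblast and osteocyte genes of 43406 to 115615 CPM in libraries labelled DKO, 51405 to 162028 CPM in those labelled WT, 155564 to 299218 CPM in C1HR and 32484 to 61672 CPM in its WT group. No gene of any marker list had a median of 0 in any group.

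The receptors Oscar, Siglec15 and Trem2 and the kinase Src were lower in libraries labelled DKO and higher in C1HR, each against its own WT group. The adaptor Fcer1g, the kinase Syk and phospholipase gene Plcg2 were higher in libraries labelled DKO and lower in C1HR. Itgb3 and Tyrobp differed little in either comparison, and Pira2, at the edge of detection, was higher in libraries labelled DKO. In the first comparison 4 genes were higher, 4 lower and 2 not called at an edgeR quasi-likelihood adjusted p under 0.05, where 55% of 15479 genes were called, 24.1% higher and 30.9% lower. In the second, 4 of 9 tested genes were higher, 4 lower and 1 not called, where 84.3% of 13976 genes were called, 43.7% higher and 40.6% lower. The second share is near that of all genes, and nothing particular to these genes is read from either count. The median log2 FC of the tested genes was -0.25 in the first comparison and 0.03 in the second, against -0.09 and 0.05 for all genes. Opposite calls were shared by 7 of the 9 genes tested in both comparisons, and 47.2% of the 13821 genes so tested had opposite calls too. That the calls are opposite rests on the labels of the first experiment, which Sik2 ran counter to, and with those labels exchanged the 7 genes would have changed the same way in both. The 4 lower in libraries labelled DKO and higher in C1HR stand beside 25.8% of all genes, and the 3 with the reverse pattern beside 21.4%. In bulk RNA, fewer cells of a type and less RNA per cell cannot be told apart. Nothing in the labels says that the libraries came from separate animals, so p-values measure the spread between these libraries.

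**Figure D1:**
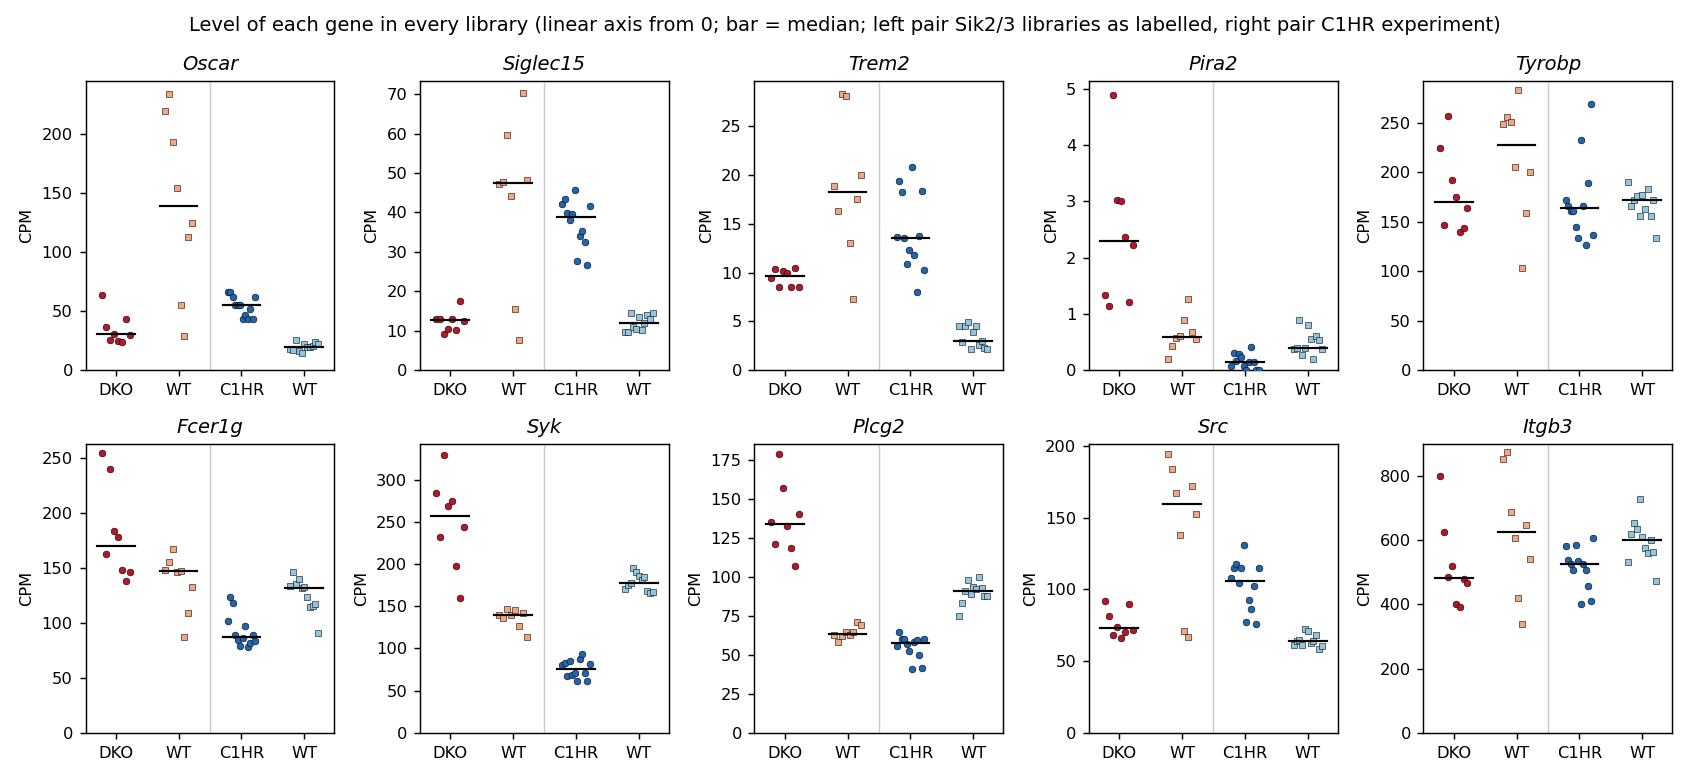
Level of each of the 10 genes in library-scaled counts (CPM, vertical axis, linear from 0) in every library, with a bar at the group median. In each panel the left pair shows libraries labelled DKO and WT of the Sik2/3 experiment and the right pair shows C1HR and its WT group. Syk and Plcg2 do not overlap within either pair, with Syk at 159 to 329 CPM in libraries labelled DKO against 114 to 146 CPM in those labelled WT, while Itgb3 and Tyrobp overlap within both.

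Oscar (ENSMUSG00000054594; mm9 chromosome 7, 3561415 to 3567759, minus strand) encodes the osteoclast-associated receptor, which binds collagen. In libraries labelled DKO its lowest, median and highest levels were 24.1, 30.3 and 63.8 CPM, against 29.1, 139 and 234 CPM in those labelled WT. The groups overlapped through the libraries labelled WT 5 and WT 6, at 55.2 and 29.1 CPM, both within the range of the libraries labelled DKO, while the other 6 labelled WT were at 113 CPM or more. The mean was 34.8 ± 13.4 CPM in libraries labelled DKO against 140.2 ± 74.2 CPM in those labelled WT (SD, n = 8 each). This is 4.03-fold lower (log2 FC -2.01 ± 0.36, edgeR adjusted p = 0.000305), and all 8 libraries labelled DKO lay under the WT mean. In C1HR Oscar measured 43.3, 54.9 and 66.0 CPM, against 14.4, 19.6 and 25.9 CPM in its WT group. Every C1HR library lay above every WT library (log2 FC 1.44 ± 0.10, edgeR adjusted p = 7.01e-13).

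Siglec15 (ENSMUSG00000091055, chromosome 18), a sialic-acid-binding lectin that uses DAP12 in osteoclasts, had the same pattern. Its lowest, median and highest levels were 9.26, 12.7 and 17.7 CPM in libraries labelled DKO, against 7.55, 47.5 and 70.2 CPM in those labelled WT. The libraries labelled WT 5 and WT 6 were again low, at 15.4 and 7.55 CPM, and the other 6 labelled WT were at 44.1 CPM or more. Siglec15 was 3.43-fold lower in libraries labelled DKO (log2 FC -1.78 ± 0.34, edgeR adjusted p = 0.000438). C1HR libraries measured 26.6, 38.9 and 45.8 CPM, against 9.56, 11.9 and 14.6 CPM in their WT group, with no overlap. The log2 FC in C1HR was 1.63 (SE 0.10, edgeR adjusted p = 1.07e-13).

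Trem2 (ENSMUSG00000023992; mm9 chromosome 17, 48485726 to 48493472, plus strand), a lipid-binding receptor of macrophages, microglia and osteoclasts, was scarce. Libraries labelled DKO held it at 8.51, 9.68 and 10.5 CPM against 7.33, 18.2 and 28.3 CPM in those labelled WT. The overlap came from WT 6 alone, at 7.33 CPM, and WT 5 lay above every library labelled DKO at 13 CPM. Trem2 was lower in libraries labelled DKO (log2 FC -0.98 ± 0.21, edgeR adjusted p = 0.000974). In C1HR it measured 8.04, 13.6 and 20.8 CPM, against 2.16, 2.95 and 4.96 CPM in its WT group. The C1HR libraries were all higher, and at a log2 FC of 2.06 (SE 0.18, edgeR adjusted p = 6.71e-11) Trem2 had the largest change of the 9 genes tested there. Macrophages express Trem2 too, and the summed level of 12 macrophage genes was 919 to 1343 CPM in libraries labelled DKO against 918 to 2564 CPM in those labelled WT, and 1186 to 2029 CPM in C1HR and 600.5 to 750.5 CPM in its WT group. By gene the macrophage list was mixed in the first comparison, with 2 higher and 4 lower of 11 tested, and had 9 higher and 2 lower of 11 in the second. Its part in the Trem2 result was not tested.

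Pira2 (ENSMUSG00000089942; mm9 chromosome 7, 3788412 to 3796653, minus strand) belongs to the paired immunoglobulin-like receptors, whose near-identical copies can share reads, so its counts are uncertain. It had 28 to 123 reads per library labelled DKO and 4 to 28 in those labelled WT, or 1.13, 2.30 and 4.89 CPM against 0.199, 0.588 and 1.26 CPM. Only WT 6 reached the range of the libraries labelled DKO. Pira2 was higher in libraries labelled DKO (log2 FC 1.88 ± 0.35, edgeR adjusted p = 0.000438). In C1HR it had 0 to 6 reads, against 3 to 14 in its WT group, and was left out by the filter on low counts. A fit without that filter gave a log2 FC of -1.63 (SE 0.38, edgeR adjusted p = 0.000447).

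Of the adaptors, Tyrobp (ENSMUSG00000030579; mm9 chromosome 7, 31198807 to 31202596, plus strand), which encodes DAP12, was not called in either comparison. It measured 139.8, 169.5 and 257 CPM in libraries labelled DKO, against 104, 227 and 283 CPM in those labelled WT. The extremes of the WT range were WT 6, the lowest, and WT 5, the highest. The log2 FC was -0.24 with a 95% interval of -0.60 to 0.12 (edgeR adjusted p = 0.275), and limma voom with quality weights called it lower (-0.34, adjusted p = 0.0194). In C1HR it measured 127, 164 and 269 CPM, against 133, 172 and 190.3 CPM in its WT group. Its log2 FC there was 0.03, with a 95% interval of -0.17 to 0.24 (edgeR adjusted p = 0.759), and turned to -0.02 with DESeq2 size factors and to -0.36 (adjusted p = 0.00624) with scaling by total counts alone. Siglec15 and Trem2, which use DAP12, thus passed the test in both comparisons while their adaptor did not, and its intervals allow changes of either sign.

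Fcer1g (ENSMUSG00000058715; mm9 chromosome 1, 173159703 to 173164496, minus strand), the γ chain shared by OSCAR, PIR-A and the Fc receptors, went the other way from Oscar. It measured 138, 170.3 and 254 CPM in libraries labelled DKO, against 86.8, 147 and 167 CPM in those labelled WT, with broad overlap. It was higher in libraries labelled DKO (log2 FC 0.41 ± 0.15, edgeR adjusted p = 0.0318), a call that was lost without the library labelled DKO 1 (adjusted p = 0.0710), without DKO 3 (0.0700) or without WT 7 (0.0505), and with voom (0.0759). In C1HR it measured 78.4, 87.3 and 123 CPM, against 90.6, 132 and 147 CPM in its WT group, and was lower there (log2 FC -0.44 ± 0.08, edgeR adjusted p = 2.86e-05). The groups overlapped. Mast cells and basophils also carry the γ chain. Their 10 markers summed to 74.0 to 172 CPM in libraries labelled DKO against 88.9 to 907 CPM in those labelled WT, and to 159 to 563 CPM in C1HR and 121 to 160.2 CPM in its WT group. By gene this list was mixed, with 3 higher and 6 lower of 10 tested in the first comparison and 5 higher and 4 lower of 9 in the second. Its part in the Fcer1g result was not tested.

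Syk (ENSMUSG00000021457; mm9 chromosome 13, 52678542 to 52744161, plus strand) is the kinase that both adaptors recruit. It measured 159, 256 and 329 CPM in libraries labelled DKO, against 114, 139.6 and 146 CPM in those labelled WT, and the groups did not overlap. WT 5 and WT 6, which were as low as the libraries labelled DKO in Oscar, Siglec15 and Src, lay within the range of the other libraries labelled WT here, at 145.1 and 126 CPM. Syk was higher in libraries labelled DKO (log2 FC 0.87 ± 0.12, edgeR adjusted p = 4.87e-05). In C1HR it measured 61.0, 75.8 and 93.6 CPM, against 166, 178 and 195 CPM in its WT group. No C1HR library reached a WT library, and C1HR 8 and C1HR 9, at 87.1 and 93.6 CPM, were above the 85.4 CPM of the highest other C1HR library. Syk was lower in C1HR (log2 FC -1.23 ± 0.07, edgeR adjusted p = 8.73e-15).

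Plcg2 (ENSMUSG00000034330; mm9 chromosome 8, 120022191 to 120159040, plus strand), the phospholipase that turns the SYK signal into calcium release, moved with Syk. It measured 107, 134 and 179 CPM in libraries labelled DKO, against 58.5, 63.6 and 71.0 CPM in those labelled WT, with WT 5 and WT 6 at 62.7 and 64.8 CPM. The groups did not overlap, and the log2 FC of 1.08 had the smallest adjusted p of the 10 genes in this comparison (SE 0.09, edgeR adjusted p = 3.6e-06). C1HR libraries measured 41.0, 57.8 and 64.9 CPM, against 74.8, 90.9 and 99.8 CPM in their WT group, again with no overlap (log2 FC -0.71 ± 0.07, edgeR adjusted p = 7.2e-10). Syk and Plcg2 were thus the 2 genes whose groups did not overlap in the first comparison, against 10% of all genes tested. In the second, 6 of the 9 genes did not overlap, against 52.8% of all genes tested. Without WT 5 and WT 6, 7 of 10 genes did not overlap in the first comparison, against 36.2% of all genes tested.

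Syk and Plcg2 are also expressed by B cells and platelets, and Syk and Fcer1g by neutrophils, and markers of these cells went the same way. The summed level of 12 granulocyte genes was 9602 to 24018 CPM in libraries labelled DKO against 835 to 16298 CPM in those labelled WT, and 238 to 5615 CPM in C1HR and 13185 to 19581 CPM in its WT group. For 10 genes of the B lineage the sums were 248 to 425 CPM in libraries labelled DKO against 47.3 to 212 CPM in those labelled WT, and 97.7 to 269 CPM in C1HR and 427 to 615 CPM in its WT group. Of the granulocyte list 11 of 12 genes were higher in the first comparison and 12 of 12 lower in the second. Without the libraries that stand apart all 12 were higher in the first comparison. Of the B lineage list 10 of 10 were higher in the first and 9 of 10 lower in the second. The part of these cells in the results for Syk, Plcg2 and Fcer1g was not tested.

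Src (ENSMUSG00000027646; mm9 chromosome 2, 157244180 to 157297598, plus strand), the kinase that phosphorylates ITAMs and organises the ruffled border, grouped with the receptors and not with Syk and Plcg2. It measured 66.0, 72.9 and 91.8 CPM in libraries labelled DKO, against 66.7, 159.8 and 195 CPM in those labelled WT. WT 5 and WT 6, at 71.2 and 66.7 CPM, lay within the range of the libraries labelled DKO, and the other 6 labelled WT were at 138 CPM or more. Src was lower in libraries labelled DKO (log2 FC -0.90 ± 0.20, edgeR adjusted p = 0.00139). In C1HR it measured 75.9, 106 and 131 CPM, against 58.4, 63.8 and 72.2 CPM in its WT group. The C1HR libraries were all higher (log2 FC 0.68 ± 0.08, edgeR adjusted p = 1.17e-08). Scaling by total counts alone, which moved the median of all genes in the second comparison to -0.35, put Src at 0.27, Fcer1g at -0.85 and Plcg2 at -1.12 in C1HR, and Fcer1g at 0.63 in libraries labelled DKO, all still called.

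**Figure D2:**
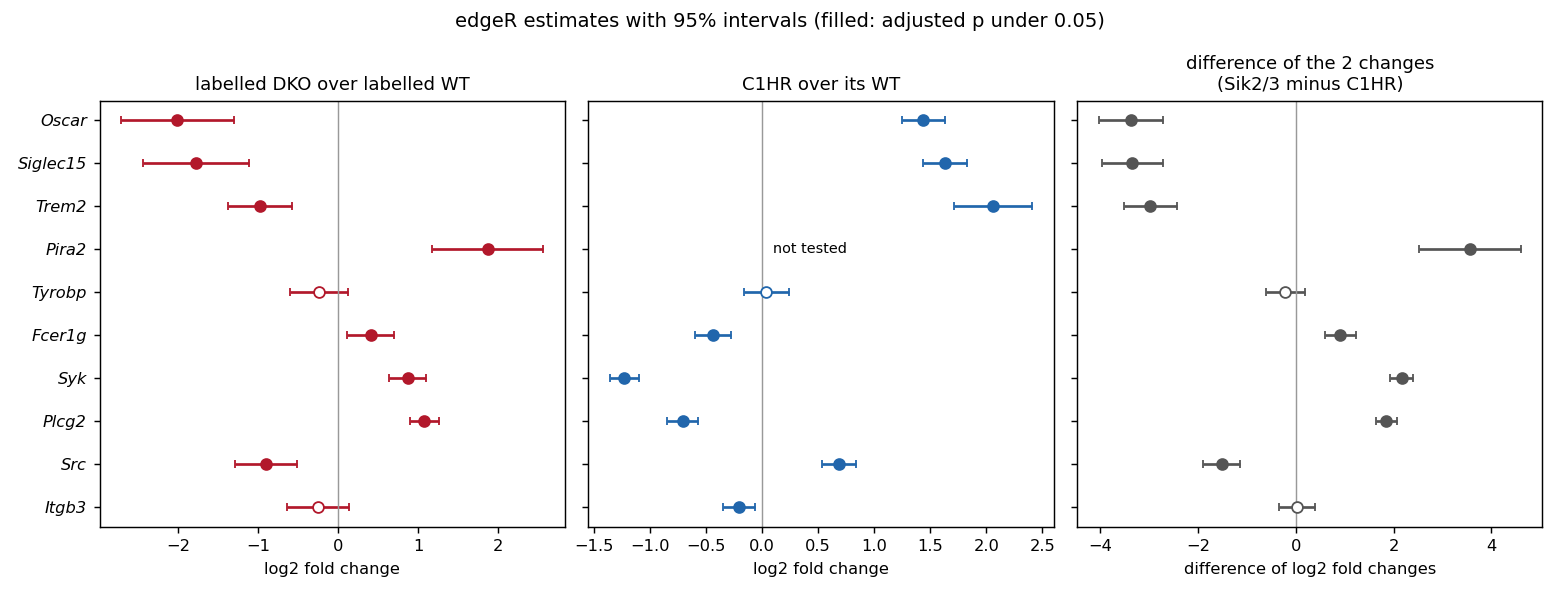
Fold changes of the 10 genes on the log2 scale (horizontal axes, which differ between panels) with 95% intervals, for libraries labelled DKO over labelled WT, for C1HR over its WT group, and for the difference of these changes. Filled points passed an adjusted p of 0.05, and Pira2 was not tested in C1HR. Oscar, Siglec15, Trem2 and Src lie left of 0 in the first panel and right of it in the second, and Itgb3 and Tyrobp lie near 0 throughout, at 0.02 and -0.22 in the panel of differences.

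The difference between the changes was tested as a contrast, Sik2/3 minus C1HR, in 1 fit of all 39 libraries. It was negative for Oscar (-3.38, SE 0.34), Siglec15 (-3.34, SE 0.31), Trem2 (-2.98, SE 0.28) and Src (-1.52, SE 0.20). It was positive for Pira2 (3.57, SE 0.53), Syk (2.16, SE 0.12), Plcg2 (1.85, SE 0.11) and Fcer1g (0.91, SE 0.16). These 8 genes passed the test, the largest of their edgeR adjusted p being 3.07e-06 for Fcer1g, and 80.2% of 15387 genes did, 38.1% with a positive and 42% with a negative difference. Tyrobp (-0.22, SE 0.20, edgeR adjusted p = 0.323) and Itgb3 (0.02, SE 0.19, edgeR adjusted p = 0.918) did not. With total counts alone the difference was -0.92 for Src and 1.48 for Fcer1g. The size of these differences rests on the labels of the first experiment. With those labels exchanged, a setting chosen after seeing the data, the difference was 0.54 for Oscar (edgeR adjusted p = 0.155), 0.12 for Siglec15 (0.754), 0.19 for Src (0.412), 0.0082 for Fcer1g (0.969) and -0.24 for Pira2 (0.758). It was -1.12 for Trem2 (edgeR adjusted p = 0.000787), 0.34 for Syk (0.0151), -0.39 for Plcg2 (0.00234) and 0.43 for Itgb3 (0.0479), which passed. In that setting 56.6% of 15387 genes passed.

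Itgb3 (ENSMUSG00000020689; mm9 chromosome 11, 104469370 to 104531790, plus strand) was not called in the first comparison and changed by a small step in the second. It measured 391, 481 and 799.9 CPM in libraries labelled DKO, against 337, 627 and 873 CPM in those labelled WT. The groups overlapped over most of their ranges, with WT 5 and WT 6 at 419.6 and 337 CPM below the other 6 labelled WT, which started at 539.96 CPM. The log2 FC was -0.25, with a 95% interval of -0.63 to 0.13 (edgeR adjusted p = 0.285). Without WT 5 and WT 6 it was -0.40 and passed (edgeR adjusted p = 0.0387), and with limma voom and quality weights it was -0.51 (adjusted p = 0.00271). In C1HR Itgb3 measured 401, 525.5 and 605 CPM, against 472, 599 and 727 CPM in its WT group. It was slightly lower in C1HR (log2 FC -0.21 ± 0.07, edgeR adjusted p = 0.0124), where Oscar, Siglec15, Trem2 and Src were higher. That call was lost in 1 fit of all 4 groups (-0.23, edgeR adjusted p = 0.0804). The change was larger without C1HR 8 and C1HR 9 (-0.32, edgeR adjusted p = 0.000487) and with scaling by total counts alone (-0.62, adjusted p = 6.28e-09). With scaling by total counts alone, which moved the median of all genes in the difference contrast to 0.44, the Itgb3 difference of 0.61 passed (adjusted p = 0.00124), and with voom it was -0.29 (adjusted p = 0.0447). The call of that difference depends on scaling and on the tool.

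The α chains that pair with β3 moved in opposite directions. Itgav, the osteoclast partner that is also broadly expressed, averaged 174 ± 27.3 CPM in libraries labelled DKO against 431 ± 132 CPM in those labelled WT (SD, n = 8 each; log2 FC -1.31, edgeR adjusted p = 6.74e-05). It averaged 379.7 ± 48.3 CPM in C1HR (SD, n = 12) and 121 ± 23.9 CPM in its WT group (SD, n = 11; log2 FC 1.64). Itga2b, the platelet partner, averaged 209.8 ± 58.8 CPM in libraries labelled DKO against 39.97 ± 43.5 CPM in those labelled WT (log2 FC 2.39, edgeR adjusted p = 0.0011). In C1HR it averaged 11.9 ± 15.4 CPM, against 258 ± 38.8 CPM in its WT group (log2 FC -4.44). Itgb5, another β chain that pairs with αv, followed Itgav, with log2 FCs of -1.60 and 1.62. The ratio of Itgb3 to Itga2b was lower in libraries labelled DKO, at a log2 of 1.18 to 1.496, than in those labelled WT, at 1.69 to 6.57. It was higher in C1HR, at 3.51 to 7.86, than in its WT group, at 1.02 to 1.40. The ratio of Itgb3 to Itgav ran the other way, at a log2 of 1.07 to 2.31 in libraries labelled DKO against 0.16 to 0.83 in those labelled WT, and at 0.03 to 0.80 in C1HR against 1.62 to 2.89 in its WT group. None of these 4 pairs of ranges overlapped. As Itgb3 itself changed little, these ratios largely restate the changes of Itga2b and Itgav. The share of all genes that would separate in such ratios was not computed.

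Platelet genes, a list that includes Itga2b, went the same way as Itga2b. The summed level of 12 platelet and megakaryocyte genes was 1172 to 2863 CPM in libraries labelled DKO against 64.7 to 1475 CPM in those labelled WT, and 33.8 to 391 CPM in C1HR and 1573 to 3400 CPM in its WT group. All 12 were higher in the first comparison (median log2 FC 2.39) and all 12 lower in the second (-4.57). Without WT 5, WT 6, C1HR 8 and C1HR 9 these medians were 4.17 and -5.97. The mean log2 CPM of the 12 genes was 5.93 in WT 5 and 5.42 in WT 6, where the median of the libraries labelled WT was 2.53. Pf4, the platelet chemokine, averaged 190.3 ± 73.8 CPM in libraries labelled DKO against 54.7 ± 74.5 CPM in those labelled WT, and 26.6 ± 11.7 CPM in C1HR against 331 ± 60.9 CPM in its WT group (SD). The part of platelets in the Itgb3 level was not tested. Within groups, where fold changes between groups play no part, the relation of Itgb3 to these genes had a different sign in different groups. All the correlations that follow are between log2 CPM of the gene and the mean log2 CPM of the list in the same library, so both share that library's scaling. WT 5, WT 6, C1HR 8 and C1HR 9, which lie apart, were left out, and p-values are two-sided permutation values (exact with 6 or 8 libraries) among 16 relations computed. Across the 8 libraries labelled DKO, r was 0.95 (permutation p = 0.000744, adjusted p = 0.00397), Spearman's rho was 0.95 (permutation p = 0.00114, adjusted p = 0.0111), and r without the 2 farthest libraries was 0.82. Across the 11 WT libraries of the C1HR experiment r was 0.89 (permutation p = 0.00074, adjusted p = 0.00397), rho 0.84 (permutation p = 0.00208, adjusted p = 0.0111) and r without the 2 farthest 0.60. Across 6 libraries labelled WT in the Sik2/3 experiment r was -0.97 (exact permutation p = 0.0139, adjusted p = 0.037), rho -0.89 (exact permutation p = 0.0333, adjusted p = 0.0667) and r without the 2 farthest -0.92. Across 10 C1HR libraries r was -0.03 (permutation p = 0.932, adjusted p = 0.932) and rho -0.58 (permutation p = 0.0873, adjusted p = 0.116), and r without the 2 farthest was -0.84, so the value near 0 rests on those libraries. Whether these correlations differ between groups was not tested.

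**Figure D3:**
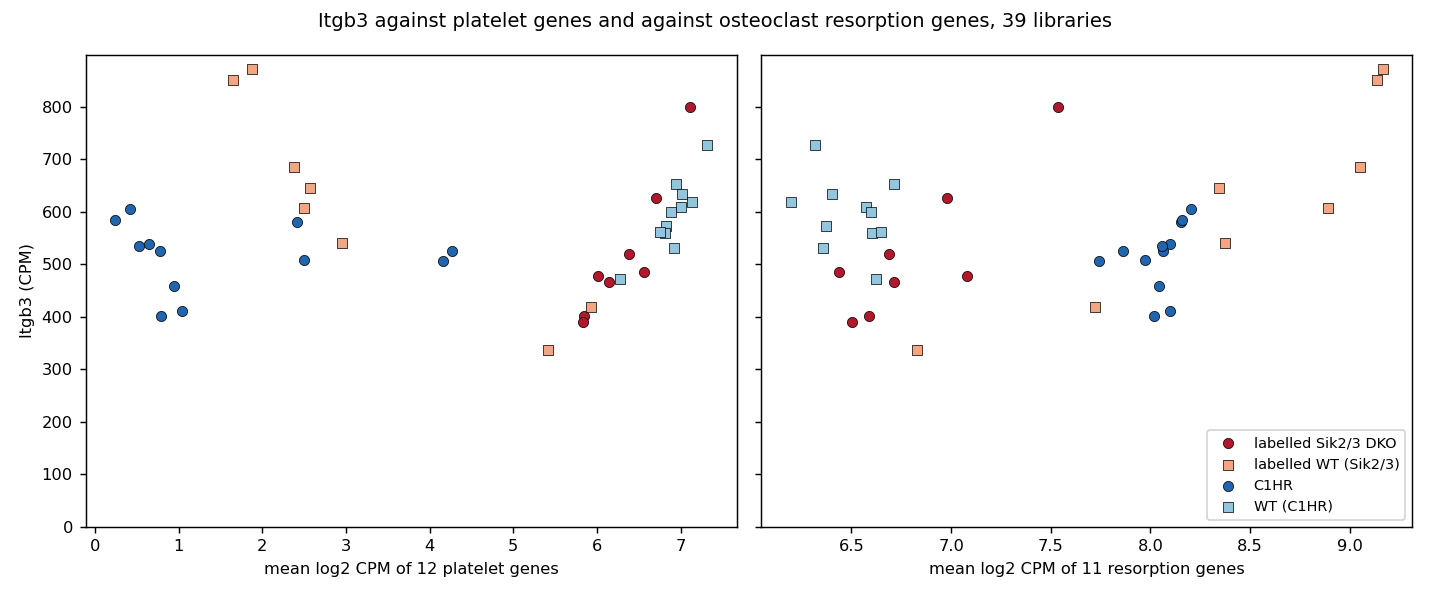
Itgb3 in CPM (vertical axis, from 0) against the mean log2 CPM of 12 platelet genes (left) and of 11 resorption genes without Car2 (right), 1 point per library, 39 libraries in the 4 groups. In the left panel Itgb3 climbs with platelet genes among libraries labelled DKO (r = 0.95) and WT libraries of the C1HR experiment (r = 0.89), while the libraries with few platelet genes reach the same Itgb3 levels.

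The matching correlations with 11 osteoclast resorption genes (the list without Car2) were positive in 3 of the 4 groups, and none passed adjustment by Pearson's r. For Itgb3 r was 0.84 in the 8 libraries labelled DKO (exact permutation p = 0.0256, adjusted p = 0.0513), with rho 0.57 (exact permutation p = 0.151) and 0.77 without the 2 farthest. It was 0.78 in 6 labelled WT (exact permutation p = 0.0611), with rho 0.83 (exact permutation p = 0.0583) and 0.96 without the 2 farthest. In 10 C1HR libraries r was 0.62 (permutation p = 0.0571), with rho 0.76 (permutation p = 0.0146, adjusted p = 0.039) and 0.68 without the 2 farthest. In the 11 WT libraries r was -0.29 (permutation p = 0.385), with rho -0.25 (permutation p = 0.45) and 0.07 without the 2 farthest. For Oscar the correlation with resorption genes passed in 3 of the 4 groups, with r of 0.99 in the libraries labelled DKO (rho 0.90, exact permutation adjusted p = 0.00397 for r and 0.0146 for rho, 0.93 without the 2 farthest). Its r was 0.97 in 6 labelled WT (rho 1, exact permutation adjusted p = 0.00889 for r and 0.0111 for rho, 0.998 without the 2 farthest) and 0.82 in the 11 WT libraries (rho 0.85, permutation adjusted p = 0.00889 for r and 0.0111 for rho, 0.83 without the 2 farthest). In 10 C1HR libraries it was 0.42 (rho 0.35, permutation adjusted p = 0.28 for r and 0.38 for rho, 0.46 without the 2 farthest). None of the correlations of Oscar with the platelet genes passed adjustment. Its r was 0.68 in libraries labelled DKO (rho 0.69, exact permutation adjusted p = 0.108 for r and 0.101 for rho, 0.043 without the 2 farthest). It was -0.86 in 6 labelled WT (rho -0.89, exact permutation adjusted p = 0.0508 for r and 0.0667 for rho, -0.65 without the 2 farthest), of the same sign as the -0.97 of Itgb3 there. In C1HR it was 0.13 (rho -0.055, permutation adjusted p = 0.827 for r and 0.89 for rho, -0.51 without the 2 farthest) and in its WT group -0.58 (rho -0.63, permutation adjusted p = 0.0889 for r and 0.0775 for rho, -0.39 without the 2 farthest).

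With group means removed, over all 39 libraries and 13820 genes, the genes most like Itgb3 were Arl8b (r = 0.89), Rnf19b (0.88), Plxna4 (0.87), F2r (0.86) and Wdr1 (0.86). Src ranked 11th (0.82) and Oscar 25th (0.80), while Itga2b had r = -0.32 and Itgav 0.47. The genes most like Oscar were Ctsz (0.97), Glb1, Csf1r, Atp6v1b2 and Slc37a2 (0.96 each), of which Ctsz and Glb1 encode lysosomal enzymes, Csf1r the receptor for macrophage colony-stimulating factor and Atp6v1b2 a proton pump subunit. These are descriptions of libraries that share depth and scaling, with no test. Without the 4 libraries that stand apart, 2 of the 5 genes for Itgb3 and 3 of the 5 for Oscar were the same. For Itgb3, Src then ranked 20th (r = 0.74) and Oscar 85th (0.66). Itga2b turned to r = 0.14 and Itgav fell to 0.03, so the values of both rest on those libraries.

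Compared per length of annotated exons, Tyrobp was the most abundant of the 10 genes in all 4 groups, followed by Fcer1g and then Itgb3, and Trem2 and Pira2 were lowest. In libraries labelled DKO the levels were 320 ± 74.6 RPKM for Tyrobp, 227 ± 54.5 for Fcer1g and 89.2 ± 22.95 for Itgb3, against 378 ± 105 RPKM, 171 ± 33.02 and 106 ± 32.3 in those labelled WT (SD, n = 8 each). The ranges of Tyrobp and Fcer1g overlapped in both groups of the Sik2/3 experiment and in neither group of the other. The middle of the order turned. Plcg2 and Syk followed Itgb3 in libraries labelled DKO, at 31.7 ± 5.32 and 26.6 ± 5.65 RPKM, with Oscar, Src and Siglec15 below them. Oscar (75.9 ± 40.2 RPKM), Siglec15 (36.8 ± 18.2) and Src (32.8 ± 11.2) followed Itgb3 in those labelled WT, with Plcg2 and Syk below them. The C1HR order was Siglec15 (32.2 ± 5.30 RPKM), Oscar (29.3 ± 4.64), Src (23.7 ± 3.91), Plcg2 (12.8 ± 1.74) and Syk (8.11 ± 1.12), against Plcg2 (20.98 ± 1.61), Syk (19.1 ± 1.07), Src (14.7 ± 1.01), Oscar (10.8 ± 1.84) and Siglec15 (10.4 ± 1.70) in its WT group (SD, n = 12 and 11). Neighbours in this middle stretch overlapped in range except Src over Plcg2 in C1HR and Syk over Src in its WT group.

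To see whether the genes followed other osteoclast genes, their changes were also computed relative to 12 resorption genes, such as Ctsk, which encodes cathepsin K, and Acp5, which encodes tartrate-resistant acid phosphatase. Ctsk averaged 1297 ± 554 CPM in libraries labelled DKO against 5928 ± 3009 CPM in those labelled WT (SD, n = 8 each), and 4559 ± 1101 CPM in C1HR (SD, n = 12) and 1149 ± 154 CPM in its WT group (SD, n = 11). Acp5 averaged 1821 ± 672 CPM in libraries labelled DKO against 7493 ± 3619 CPM in those labelled WT, and 5749 ± 1129 CPM in C1HR against 1699 ± 225 CPM in its WT group. Of the list 11 of 12 genes were lower in the first comparison and 11 of 12 higher in the second. The exception in both was Car2, which red cells also express, with log2 FCs of 2.10 and -3.70. Of 10 erythroid genes 8 were higher and 0 lower in the first comparison (median log2 FC 2.64). In the second, 0 were higher and 10 lower (median -3.74). The part of red cells in the Car2 result was not tested. Relative to the 12 resorption genes Itgb3 was higher in libraries labelled DKO (log2 1.02) and lower in C1HR (-1.26), as were Tyrobp (1.05 and -1.01), Fcer1g (1.66 and -1.50), Syk (2.05 and -2.28) and Plcg2 (2.23 and -1.75). Pira2 was higher in libraries labelled DKO (2.93). In the first comparison 6 genes were higher and 1 lower on this scale, where 77.9% of all genes were called, 76.8% higher and 1.07% lower. In the second 3 were higher and 6 lower, where 88.6% were called, 16.2% higher and 72.5% lower. On this scale the median log2 FC of all genes was 1.07 in the first comparison and -0.99 in the second.

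The values of Oscar, Siglec15, Trem2 and Src relative to the resorption genes moved with how the list was used. With the full list Oscar was lower in libraries labelled DKO (log2 -0.60) and higher in C1HR (0.41). Without Car2, a choice made after seeing the data, it was at -0.21 (edgeR adjusted p = 0.368) and -0.11 (adjusted p = 0.177). Siglec15 was at -0.38 and 0.60 with the full list and at 0.01 (adjusted p = 0.971) and 0.10 (adjusted p = 0.278) without Car2. Trem2 was at 0.38 and 1.02 with the full list and at 0.73 (adjusted p = 0.0167) and 0.50 (adjusted p = 0.0108) without Car2. Src was at 0.43 and -0.36 with the full list and at 0.78 (adjusted p = 0.00634) and -0.88 (adjusted p = 5.87e-10) without it. Scaling by the median of the full list in place of its mean put Oscar at -1.26 (edgeR adjusted p = 0.000598) and 0.71, and Siglec15 at -1.08 (adjusted p = 0.00687) and 0.90. Src was at -0.21 (adjusted p = 0.341) and -0.063 (adjusted p = 0.588), so its call in the second comparison was lost. On that scale Itgb3 was at 0.44 in the first comparison (adjusted p = 0.0221) and Tyrobp at 0.48 (adjusted p = 0.0499). So whether Oscar and Siglec15 differed from the resorption genes depends on the scale, while the direction of Itgb3 was the same on all 3. By library, the log2 ratio of Oscar to the 11 genes spanned -1.96 to -1.54 in libraries labelled DKO and -1.96 to -1.30 in those labelled WT, and -2.66 to -2.05 in C1HR and -2.46 to -2.01 in its WT group. The ratio of Itgb3 to the same genes spanned 1.82 to 2.49 in libraries labelled DKO and 0.36 to 1.57 in those labelled WT, and 0.58 to 1.24 in C1HR and 2.26 to 3.19 in its WT group. The Oscar ranges overlapped in both experiments and the Itgb3 ranges in neither. Fcer1g, Syk and Plcg2 separated in both experiments as Itgb3 did. Of the 9 genes shown, 4 did not overlap in the first, against 7.01% of all genes tested, and 6 of 9 in the second, against 72.5%.

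**Figure D4:**
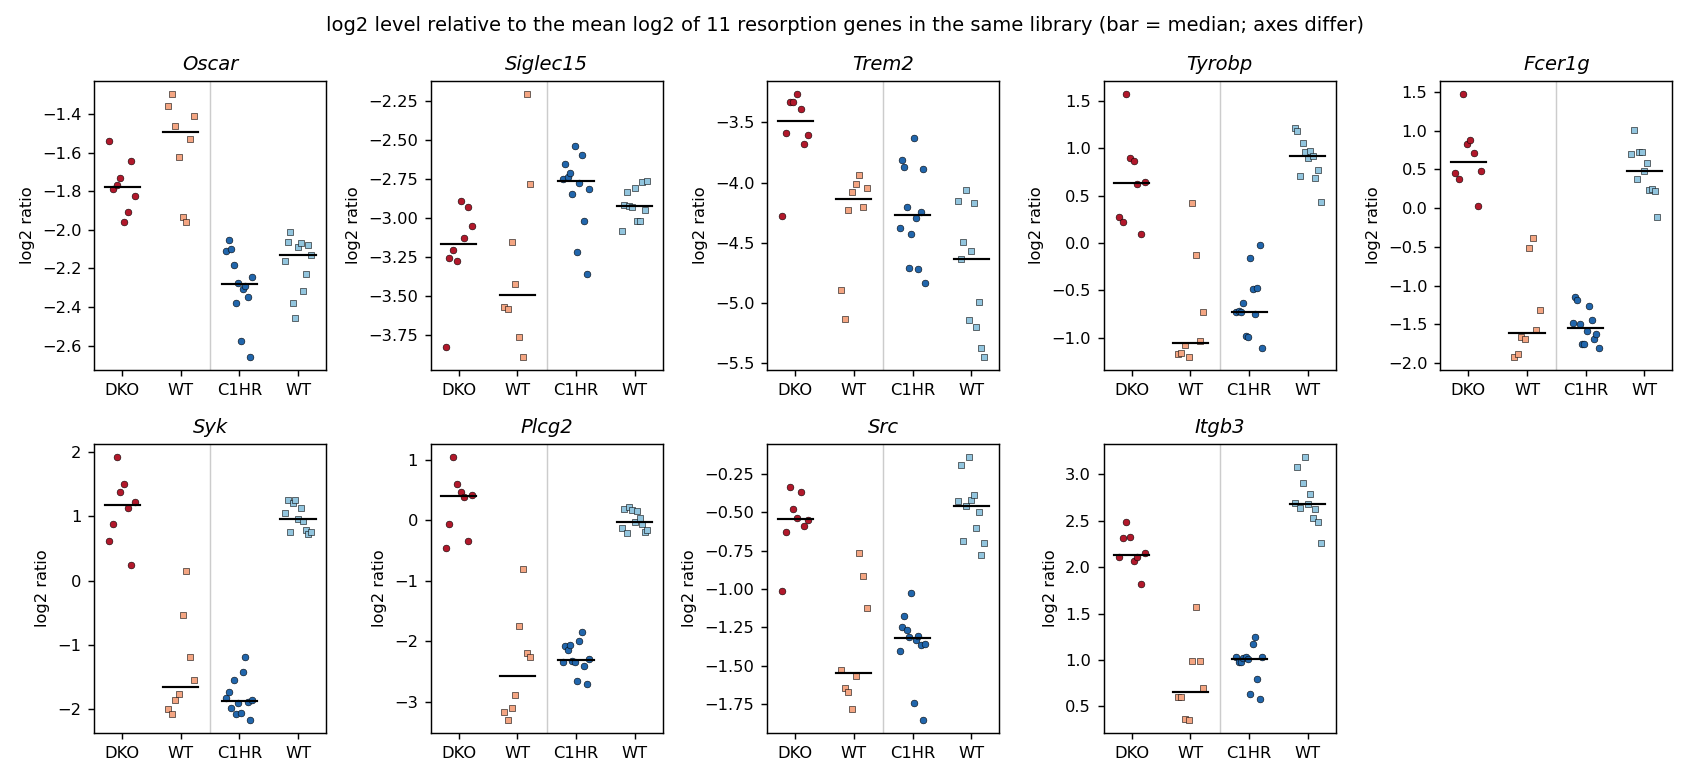
Level of 9 of the genes relative to 11 resorption genes (log2 of the gene minus the mean log2 of the list, vertical axes that differ between panels) in every library, with a bar at the median. Oscar overlaps within both pairs of groups, whereas Fcer1g, Syk, Plcg2 and Itgb3 separate in both, with Itgb3 at 1.82 to 2.49 in libraries labelled DKO against 0.36 to 1.57 in those labelled WT.

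Among the other genes of the pathway, most activating receptors that share DAP12 or FcRγ were higher in libraries labelled DKO and lower in C1HR. Of 17 listed, 11 were matched, and 10 of them were higher in libraries labelled DKO and 0 lower (median log2 FC 1.53), while 1 was higher and 10 lower in C1HR (median -1.98). Many of these receptors are also expressed by granulocytes, whose 12 markers had median log2 FCs of 2.08 and -3.60, and the part of those cells in this list was not tested. Without the libraries that stand apart the granulocyte medians were 3.39 and -4.88. Pira5 was at 2.45 in the first comparison (SE 0.44, edgeR adjusted p = 0.000325), and the same caution on near-identical copies applies. Fcgr4, an activating IgG receptor of myeloid cells, was at 1.48 in the first (SE 0.27, edgeR adjusted p = 0.000364) and -2.14 in the second. Clec5a, a lectin receptor of myeloid cells, was at -2.21 in the second (SE 0.15, edgeR adjusted p = 8.7e-13). Fcgr1, the high-affinity IgG receptor, was the gene higher in C1HR (1.45) and did not pass in the first comparison (0.13). Of 12 inhibitory receptors and phosphatases, 9 were higher and 1 lower in libraries labelled DKO, and 2 were higher and 9 lower in C1HR. Ptpn6, which encodes the phosphatase SHP-1, was at 1.68 and -1.47. Pirb, the inhibitory counterpart of the PIR-A receptors, was at 1.18 and -0.83, Cd300lf, an inhibitory receptor of myeloid cells, at 1.94 and -1.53, and Dok3, an inhibitory adaptor, at 0.46 and -0.60.

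Genes downstream of the ITAMs were called in both directions. Of 20 genes 12 were higher and 6 lower in libraries labelled DKO, and 7 were higher and 13 lower in C1HR. The kinase gene Prkcd was at 1.38 in the first comparison (SE 0.13, edgeR adjusted p = 4.28e-06) and Vav1, an exchange factor of blood cells, at 1.34 (SE 0.13, edgeR adjusted p = 9.06e-06). In the second, Rcan1, a calcineurin regulator that NFAT induces, was at 1.55 (SE 0.07) and Plcg1, the broadly expressed relative of Plcg2, also at 1.55 (SE 0.08). Nfatc1, the master transcription factor of osteoclasts, was at -1.30 (edgeR adjusted p = 0.000322) in the first and 1.22 in the second. Plcg1 was at -0.46 in the first, so it and Plcg2 had opposite calls in both comparisons. Of 22 integrin partners and podosome genes 8 were higher and 8 lower in the first comparison, and 12 higher and 9 lower in the second. Was, which encodes a regulator of actin in blood cells, was at 1.46 and -1.85, and Vcl, which encodes vinculin, at 0.80 and -0.99. Sh3pxd2a, a podosome scaffold, was at -1.002 and 2.34, Cttn, which encodes cortactin, at -0.54 and 1.06, and Ptk2b, the focal adhesion kinase PYK2 of osteoclasts, at 0.38 and -0.55. Without the 4 libraries that stand apart, the counts for the receptors, the inhibitory genes and the downstream genes in both comparisons were the same, and the integrin list had 7 higher and 9 lower in the first and 11 higher and 10 lower in the second.

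**Figure D5:**
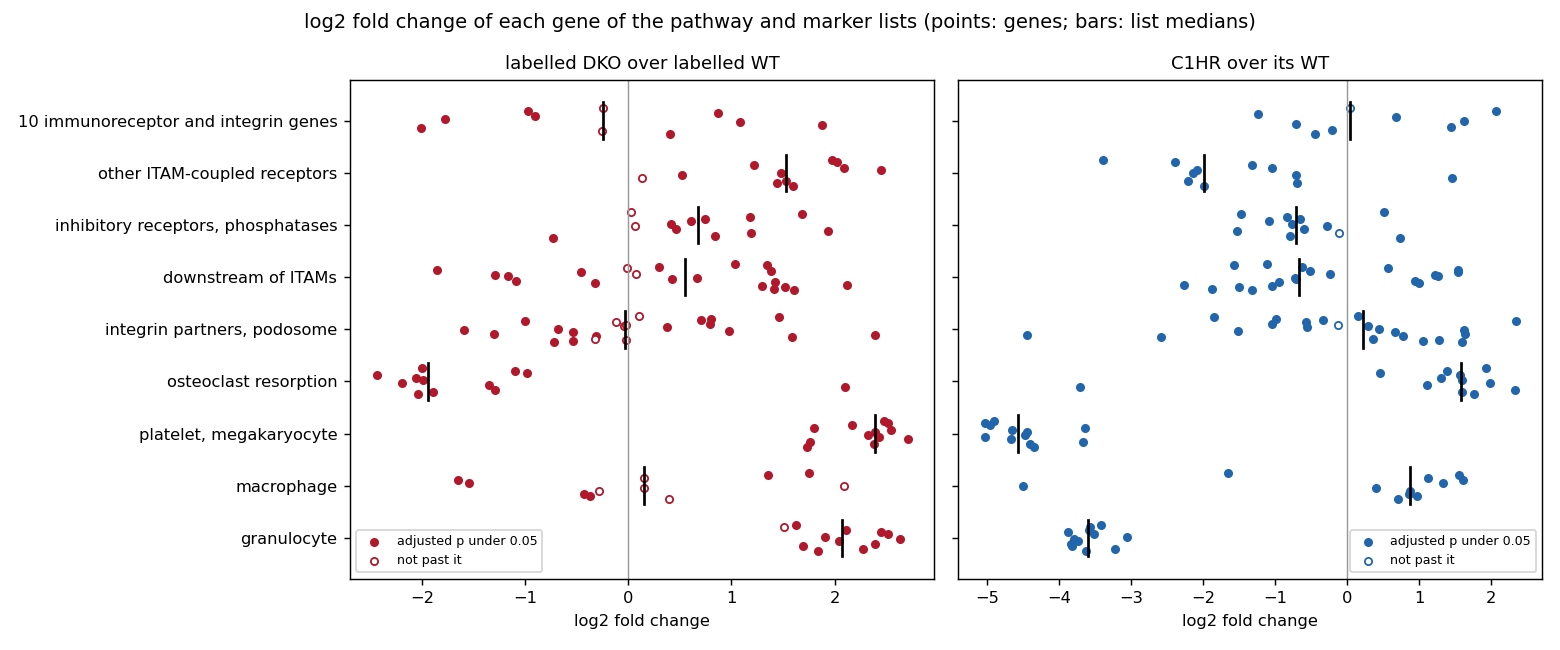
Log2 fold change (horizontal axis) of each tested gene of 9 lists, 1 point per gene, filled where the adjusted p was under 0.05, with a bar at the list median, for libraries labelled DKO over labelled WT (left) and C1HR over its WT group (right). The 10 genes of the report spread to both sides of 0, the other ITAM-coupled receptors have medians of 1.53 and -1.98, and the resorption genes lie on the opposite side from platelet and granulocyte genes apart from Car2.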

How the data were processed

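The deposited values are raw counts per gene, which the authors made with STAR (version not given in the sources used here), the mm9 genome with Ensembl annotation and HTSeq 0.6.0, per the submitters' design text. That text calls them CPM, but they are whole numbers with unequal totals. The file names say that strand was not used, and no exon of the 10 genes overlaps another annotated gene. Gene names came from GENCODE vM1 on NCBIM37, where 37168 identifiers matched and 415 did not. Syk, Pirb and Ocstamp were matched through RefSeq synonyms, and 6 listed Pira genes were not analysed here.

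Within each experiment filterByExpr set the low-count limit (10 reads, 15 in total), and libraries were scaled by TMM and compared with edgeR 4.0.16 in R 4.3.3, by the quasi-likelihood test without a block. Adjusted p are Benjamini-Hochberg values over all genes tested, called under 0.05. CPM and RPKM use the TMM library sizes, log2 ratios add 0.1 CPM, and within-group likeness uses a prior count of 2. Permutations with 10 or more libraries numbered 100000. The fit relative to resorption genes used their mean level as the scale. SE were computed from the log2 fold change and its F statistic, and 95% intervals are normal intervals from them.

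Alternatives were other scalings, no filter, DESeq2 1.42.0, limma 3.58.1 voom with quality weights, a replicate block, 1 fit of all 4 groups, leaving out libraries and, for the difference, exchanging the labels of the first experiment. Summaries used Python 3.11.15, numpy 2.4.6, pandas 2.3.3 and scipy 1.17.1. The scripts were tested on simulated data. The genes named are the 10 members, 10 fixed companions, up to 2 genes of each pathway list per comparison with the smallest adjusted p, and the 5 genes most like Itgb3 and Oscar. Fcgr1 and Car2 were named after their values were seen. The members and lists were chosen with earlier results of these data known. Without molecular identifiers PCR copies cannot be recognised, so counting error understates the true error.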

Additional observations from a re-analysis of the deposited data

Results flagged for a closer look

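For 8 genes the change in libraries labelled DKO against labelled WT differed from the change in C1HR against its WT group by a test of the difference itself (edgeR, Sik2/3 minus C1HR, log2). The differences were -3.38 for Oscar, -3.34 for Siglec15, -2.98 for Trem2 and -1.52 for Src, and 0.91 for Fcer1g, 2.16 for Syk, 1.85 for Plcg2 and 3.57 for Pira2. Of all genes tested, 80.2% passed the same test. These values take the labels of the first experiment as given, although Sik2 ran counter to them. With those labels exchanged, Trem2 (-1.12), Syk (0.34) and Plcg2 (-0.39) of the 8 passed. In that setting 56.6% of all genes passed.

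In the libraries labelled DKO, 1 value of Siglec15 stood apart. Replicate 7, at 17.7 CPM, was the highest, and its gap to the next library was 0.546 of the range of the group. About 1 group in 20 would be picked out in this way by chance.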

How the results depend on the processing

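Counts of called members kept within 1.5 times their value under every alternative in both comparisons and, but for exchanged labels, in their difference, and so did all leave-one-library-out counts. With voom 3 members were higher and 6 lower in the first comparison, where 71.4% of 15479 genes were called, 5021 higher and 6026 lower. Scaling by total counts alone moved the median log2 fold change of all genes to 0.12 in the first comparison, -0.35 in the second and 0.44 in the difference, against -0.09, 0.05 and -0.10. It gave 5270 higher and 2697 lower genes in the first comparison, against 3726 and 4788, and 4321 and 7698 in the second, against 6109 and 5678. In the difference it gave 7917 higher and 4495 lower, against 5866 and 6470.

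Tyrobp in the second comparison was -0.018 with DESeq2 size factors and with DESeq2, -0.36 with total counts, -0.066 with voom and -0.039 without the libraries that stand apart, and its leave-one-out range was -0.038 to 0.079. In the difference Tyrobp was 0.34 with total counts. The Itgb3 difference was -0.022 without the filter, -0.29 with voom and -0.16 without the libraries that stand apart, with a leave-one-out range of -0.10 to 0.11. In the second comparison Itgb3 did not pass in 1 fit of all 4 groups (-0.23, edgeR adjusted p = 0.0804). In the first, Fcer1g did not pass with voom (0.23, adjusted p = 0.0759), and Tyrobp did (-0.34, adjusted p = 0.0194). The causes were not tested. With the labels of the first experiment exchanged, the differences were 0.54 for Oscar, 0.12 for Siglec15, 0.18 for Tyrobp, 0.19 for Src, -0.39 for Plcg2 and -0.24 for Pira2. In that setting 2 members had a positive and 2 a negative difference that passed, and 56.6% of all genes passed.

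Relative to resorption genes in the first comparison, scaling by the median of the list gave 2 members lower, 7334 genes higher and 592 lower, with Trem2 at -0.27 and Src at -0.21. The list without Car2 gave 0 members and 80 genes lower, with Siglec15 at 0.011. Leaving out the libraries that stand apart gave 2 members and 218 genes lower, and voom 253 genes lower. The main values were 1, 11887 and 166. In the second, the list without Car2 gave 1 member and 1109 genes higher, with Oscar at -0.11, against 3 and 2259. Of the 5 genes most like Itgb3, 2 remained without the libraries that stand apart and 2 with Spearman's correlation. Of those most like Oscar, 3 remained without these libraries.

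The labels do not say whether replicate numbers pair the libraries, and the main fits did not use them as pairs. Same-numbered deviations correlated at -0.26 to 0.31 (median 0.14) over 8 pairs in the first experiment. Over 11 pairs in the second the range was -0.18 to 0.34 (median -0.08). In each experiment 2 libraries correlated best with their own number. These values do not settle whether the libraries were paired. With the replicate block the members called were 4 higher and 4 lower in either comparison, where 54.4% and 83.1% of all genes were called. Itgb3 in the first comparison was then at -0.22 (SE 0.10, edgeR adjusted p = 0.0892), against an SE of 0.20 without the block. Src relative to resorption genes passed in the first (0.45, edgeR adjusted p = 0.0428). Depth limits Pira2, at 0 to 6 reads per C1HR library.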
